A study of Rattus norvegicus with 23 samples.

Results

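Small RNA from mature rat sperm was compared between 8 male Long-Evans rats that breathed 0.8 ppm ozone and 7 that breathed filtered air, 15 of the 23 libraries of the series; the other 8 libraries came from rats at 0.4 ppm. The libraries were chosen by their treatment label alone. Each exposure took 4 h, and there were 5 of them over 2 weeks, 3 and then 2, in a chamber that averaged 0.798 ppm for the ozone group. The design text gives 8 rats per group, and the labels used here list 7 in air. Sperm were taken from the cauda epididymis, the segment where they are stored, and each library stands for 1 rat. Age was not given in the labels. The question was whether an inhaled oxidant alters the noncoding RNA that sperm carry.

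Mature sperm transcribe almost nothing, so their small RNA is left over from spermatogenesis or taken up while they pass through the epididymis. Fragments of tRNA and miRNAs are the classes most often followed in studies of paternal exposure, while piRNAs guard the germ line against transposons. Among miRNAs, the miR-34/miR-449 family and the X-linked miR-506 family are abundant in male germ cells, miR-200 family members mark epithelium, and miR-143 and miR-145 mark smooth muscle and stroma.

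The mature sequences of the miRNAs that the comparison turns on are shown first, because shared seeds and strands decide which of them can be told apart. They are the RefSeq sequences listed with GRCr8, and 380 of the 407 miRNAs tested had one. The seed, bases 2 to 8, is in capitals. The first 8 lead the comparison by their p-values or carry calls under one alternative, and the last 2 are abundant members of the miR-34/miR-449 family that share the seed GGCAGUG.
miR-17-2-3p: aCUGCACUgcaagcacuucuuac
miR-125b-5p: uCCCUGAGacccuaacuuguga
miR-3588: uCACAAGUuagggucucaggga
miR-24-1-5p: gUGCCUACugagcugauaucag
miR-341: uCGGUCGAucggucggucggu
miR-145-5p: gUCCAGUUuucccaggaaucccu
miR-741-3p: aAAGAUGCcacgcuauguagau
miR-471-5p: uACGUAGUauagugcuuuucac
miR-34c-5p: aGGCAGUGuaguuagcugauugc
miR-449a-5p: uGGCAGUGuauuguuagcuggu

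No miRNA, tRNA row, piRNA or Ensembl transcript passed the adjusted threshold between 0.8 ppm and air. In limma, with Benjamini-Hochberg adjustment within each table at 0.05, 0 of 407 miRNAs (0%), 0 of 273 tRNA rows (0%), 0 of 15164 piRNAs (0%) and 0 of 617 Ensembl transcripts (0%) were called. Unadjusted p-values under 0.05 were held by 9 miRNAs (2.21%; 7 higher, 1.72%, and 2 lower, 0.491%, at 0.8 ppm), 5 tRNA rows (1.83%), 391 piRNAs (2.58%) and 12 transcripts (1.94%). Log2 fold changes were above 0 in 51.1% of miRNAs, 47.6% of tRNA rows, 48.1% of piRNAs and 47.2% of transcripts. On the recovered miRNA reads, edgeR and DESeq2 also called 0 miRNAs, with 15 and 18 at an unadjusted p under 0.05.

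The precision differed between the classes of RNA. A 95% interval lying wholly inside a log2 change of 1 in either direction was found for 249 tRNA rows (91.2%), 257 miRNAs (63.1%), 342 transcripts (55.4%) and 3539 piRNAs (23.3%). Among the 144 miRNAs with a mean of at least 50, 133 had such an interval (92.4%). The most abundant sperm miRNAs were among them. miR-34c-5p, a germ-cell miRNA, ranged from 126048 to 189608 in air (median 173231) and from 96494 to 221099 at 0.8 ppm (median 170828). The 0.8 ppm libraries lay on both sides of the air range, 3 above it and 3 below it. The log2 fold change was -0.10 with a 95% interval of -0.45 to 0.26 (limma adjusted p = 0.993). For miR-34b-3p, with a mean of 43796 in air and 44898 at 0.8 ppm, the interval ran from -0.33 to 0.36. For miR-449a-5p, with a mean of 40089 and 38544, it ran from -0.49 to 0.28. miR-30a-5p averaged 24267 in air and 21569 at 0.8 ppm, with an interval of -0.55 to 0.22. miR-10a-5p varied more between rats, from 11622 to 49511 in air, and its interval of -0.64 to 0.82 was wider.

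Some libraries stood far from the rest of their own group. Many results below are also given without 0.8 ppm replicates 5 and 7, a setting chosen after seeing the data. Air replicate 6 was kept there, so only the exposed group was trimmed. A few values with air replicate 6 also left out are given below and near the end. The measure was the median absolute log2 distance of a library from the median of the other libraries of its group. In the miRNA table it was 0.765 for 0.8 ppm replicate 5 and 0.754 for replicate 7, against at most 0.405 in the other 6 libraries at 0.8 ppm. In air it was 0.519 for replicate 6 and at most 0.409 in the others. Replicate 5 was also the shallowest library, with 213839 miRNA reads. The 15 libraries held 213839 to 1245601 miRNA reads, with a median of 660822 in air and 709677 at 0.8 ppm.

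**Figure D1:**
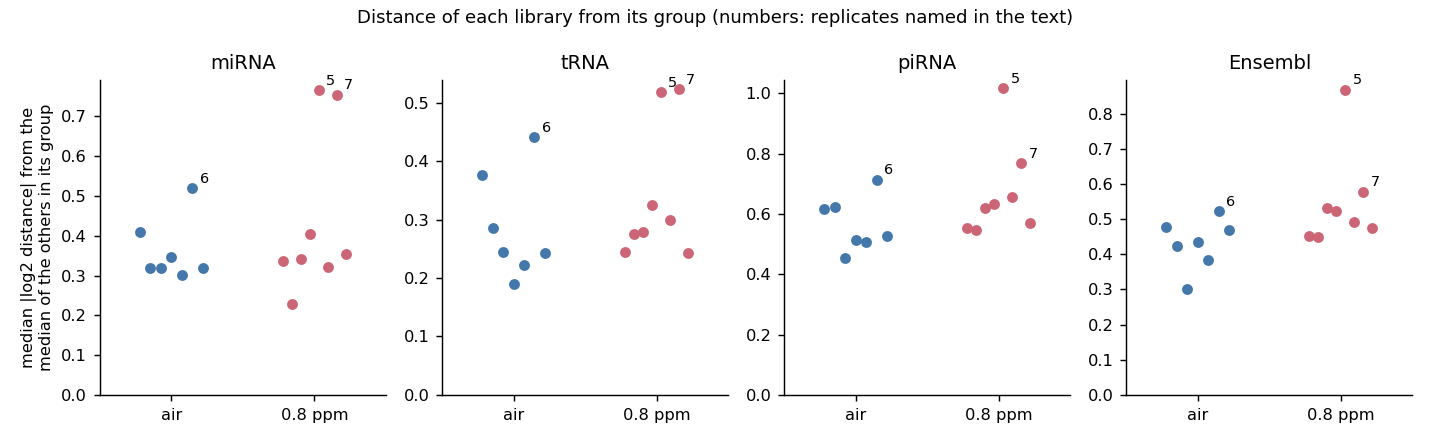
Each point is 1 library of the air group (n = 7) or the 0.8 ppm group (n = 8), and the y axis is its median absolute log2 distance from the median of the other libraries of its group, in each of the 4 tables. Replicates 5 and 7 at 0.8 ppm and replicate 6 in air are numbered, and in the miRNA table they lie at 0.765, 0.754 and 0.519.

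The libraries that stood apart differed in marker miRNAs of other cells. The muscle and stroma list has 5 measured miRNAs, 4 of them tested, and is led by miR-143-3p. Its measured members held 11.3% of the miRNA table in 0.8 ppm replicate 7 and 1.60% to 3.09% in the others at 0.8 ppm. The epithelial miR-200 list held 2.95% in 0.8 ppm replicate 5 and 0.699% to 1.37% in the others. The leukocyte list, which also takes in inflammation miRNAs, held 4.81% in air replicate 6 and 2.09% to 2.95% in the other air libraries. It held 4.75% in 0.8 ppm replicate 7 and 1.75% to 2.69% in the others at 0.8 ppm. Most of that share was 1 member, miR-146b-5p. It was at 30783 of a table sum of 668875 in air replicate 6, and at 31000 of 681846 in 0.8 ppm replicate 7. miR-146b was not among the miRNAs chosen as leukocyte markers, so this share does not speak for those markers. The miR-34/miR-449 family held 30.8% in air replicate 6, against 42.9% to 47.9% in the other air libraries. At 0.8 ppm that family held 24.1% in replicate 7 and 33.2% in replicate 5, against 38.0% to 51.3% in the others. Of the mRNAs chosen as markers, 0 of 10 for sperm, 0 of 5 for leukocytes and 0 of 3 for erythrocytes were among the Ensembl rows, beside 1 of 13 for epididymal epithelium, Lcn5, and 1 of 4 for muscle and stroma, Col1a1. Lcn5 was at 157 in 0.8 ppm replicate 5, 38.5 to 104 in the others at 0.8 ppm and 67.2 to 135 in air. Col1a1, summed over its 4 transcripts, was at 19.9 in 0.8 ppm replicate 7, within the 7.10 to 70.1 of the others at 0.8 ppm. Less of a small RNA per cell and fewer cells that carry it cannot be told apart in such libraries, and the part of these markers in the results below was not tested except by leaving libraries out.

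The smallest miRNA p-value belonged to miR-17-2-3p, the 3′ arm of a miR-17 family hairpin that RefSeq places on chromosome X. Its scaled read value was 5.30 to 10.9 in air (median 9.38) and 9.58 to 28.5 at 0.8 ppm (median 17.9). All but the lowest of the 8 exposed libraries lay above the highest air library. The mean was 9.03 ± 1.90 in air (SD, n = 7) and 18.2 ± 6.12 at 0.8 ppm (SD, n = 8), a log2 fold change of 0.90 ± 0.31 (SE) on log2(value + 1), with a 95% interval of 0.27 to 1.53. It did not pass (limma adjusted p = 0.993). These values rest on few reads, 75 in all air libraries together and 192 in all 0.8 ppm libraries. The 0.4 ppm libraries averaged 9.65 ± 4.60 (SD, n = 8), and 0.8 ppm lay 0.93 ± 0.30 log2 above them (limma adjusted p = 0.729). Without 0.8 ppm replicates 5 and 7 the log2 fold change against air was 1.08.

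miR-125b-5p, a developmental miRNA of the lin-4 family, and miR-3588 came next, and their sequences are reverse complements of each other. RefSeq places both at positions 29732588 to 29732609 of chromosome 11 in GRCr8, miR-125b-5p on the plus strand and miR-3588 on the minus strand. All 22 bases are complementary, as the sequences above show. The Mir125b1 hairpin on chromosome 8 also holds the miR-125b-5p sequence, so reads of miR-125b-5p cannot be assigned to one locus. miR-125b-5p ranged from 23.0 to 47.0 in air (median 26.5) and from 31.5 to 81.2 at 0.8 ppm (median 39.8), and miR-3588 from 12.7 to 40.8 (median 29.0) and from 26.4 to 64.4 (median 39.1). The ranges of the groups overlapped for both. Log2 fold changes were 0.59 ± 0.26 for miR-125b-5p and 0.61 ± 0.25 for miR-3588 (limma adjusted p = 0.993 for each). Their means were near each other in both groups, 29.4 and 28.1 in air, and 45.7 and 42.8 at 0.8 ppm, and their log2 values followed each other over the 15 libraries (Pearson r = 0.83), which share depth and scaling. Without 0.8 ppm replicates 5 and 7 the log2 fold changes were 0.46 and 0.41. Whether reads were assigned by strand is not stated in the sources used here. In 6 other pairs of exact reverse complements the values were identical in all 15 libraries, so reads of opposite strands were not kept apart there. How far this holds for miR-125b-5p and miR-3588 was not tested, and their 2 values cannot be counted as separate evidence.

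miR-24-1-5p was at 0 reads in all 7 air libraries. At 0.8 ppm 4 of 8 libraries held it, with 6 reads in replicate 5, 3 in replicates 1 and 4, and 2 in replicate 3. Pooled over rats, those 14 of 5983059 reads are a share 3.97 times that of 3 in 5091197 reads. The latter is the limit that a count of 0 in air allows. This limit covers counting error in air only, takes the 14 reads as observed and leaves out the spread between rats. Without replicate 5 the ratio is 2.35, on 8 of 5769220 reads. miR-24-1-5p met the filter of at least 8 libraries above 0 through ozone libraries alone, so the 0 in air is no separate support. Its mean value in the 0.4 ppm libraries was 1.49 ± 2.09 (SD, n = 8). The limma adjusted p was 0.993, and the log2 fold change is not read because every air value is 0. miR-3074, complementary to miR-24-1-5p over 20 bases, averaged 1.67 in air and 1.77 at 0.8 ppm, a log2 fold change of 0.15. Whether these 2 names share reads was not tested.

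miR-341 and miR-1306-5p were the miRNAs with a lower level at 0.8 ppm and an unadjusted p under 0.05. miR-341, from the imprinted Dlk1-Dio3 domain, averaged 5.19 ± 3.63 in air (SD, n = 7) and 1.74 ± 0.827 at 0.8 ppm (SD, n = 8), on 36 and 17 reads. miR-1306-5p averaged 47.2 ± 25.1 and 28.3 ± 6.66. Log2 fold changes were -1.01 ± 0.45 and -0.59 ± 0.28 (limma adjusted p = 0.993 for each), and the ranges overlapped.

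**Figure D2:**
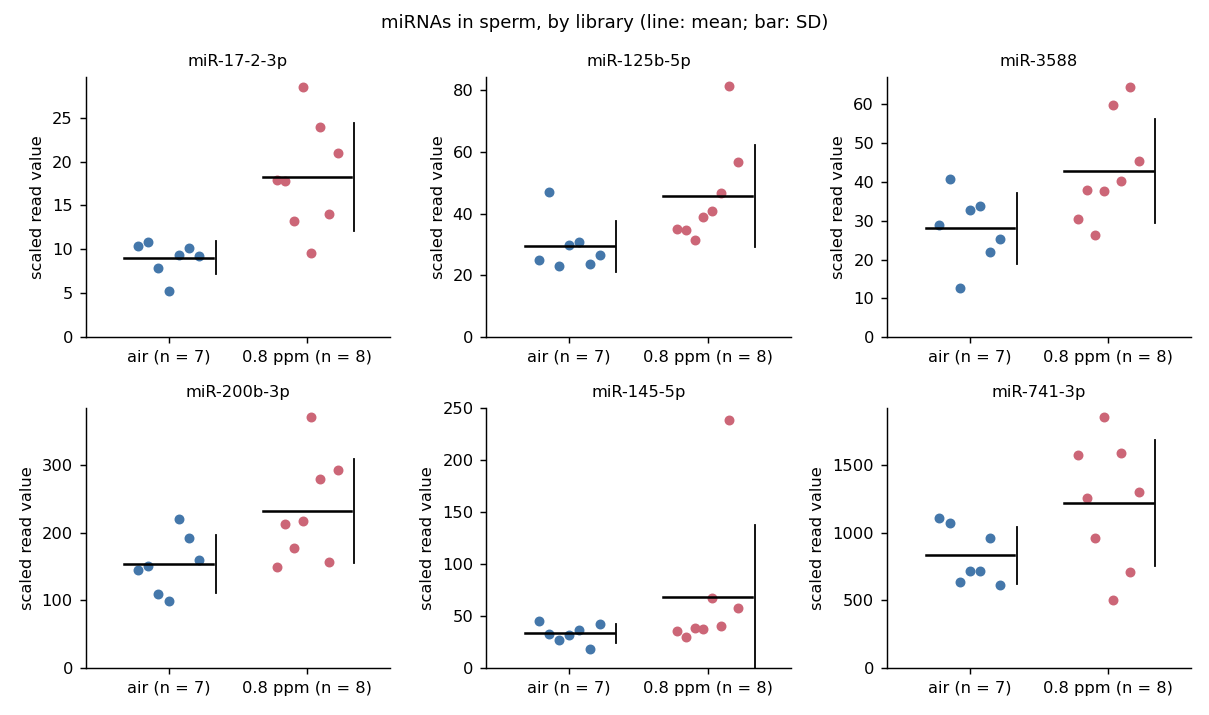
Scaled read values of 6 miRNAs in each air library (blue, n = 7) and each 0.8 ppm library (red, n = 8), with the group mean as a line and the SD as a bar, which for miR-145-5p at 0.8 ppm runs below 0 and stops at the axis. miR-17-2-3p shows the least overlap, with 7 of 8 exposed libraries above the highest air value of 10.9, and miR-145-5p has 1 exposed library at 238.

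Markers of epithelium and of smooth muscle were also among the low p-values. miR-200b-3p, an epithelial miRNA, ranged from 98.6 to 220 in air (median 151) and from 149 to 371 at 0.8 ppm (median 215). In 3 of 8 exposed libraries it lay above the highest air library. Its log2 fold change was 0.57 ± 0.26 against air (limma adjusted p = 0.993), and the 0.4 ppm libraries had a like mean of 243 ± 112 (SD, n = 8), beside 232 ± 77.0 at 0.8 ppm. miR-145-5p, a smooth muscle miRNA, ranged from 18.6 to 45.5 in air (median 32.7) and from 29.9 to 238 at 0.8 ppm (median 39.7). The value of 238 came from replicate 7, the library in which miR-143-3p reached 76738, against 12214 ± 3618 in air (SD, n = 7). The log2 fold change of miR-145-5p was 0.68 ± 0.33 with all libraries and 0.26 without 0.8 ppm replicates 5 and 7, and that of miR-143-3p was 0.41 ± 0.30 and 0.14.

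The X-linked miR-506 family leaned towards higher values at 0.8 ppm without any member passing. Of its 25 tested members, 0 passed, 19 had a positive log2 fold change and the median was 0.26, beside 208 of 407 (51.1%) and a median of 0.01 over all miRNAs. RefSeq places the hairpins of all 23 members with a sequence on chromosome X. miR-741-3p ranged from 614 to 1112 in air (median 720) and from 505.6 to 1855 at 0.8 ppm (median 1279). In 5 of 8 exposed libraries it lay above the highest air library, and the lowest exposed value was that of replicate 5. Its log2 fold change was 0.47 ± 0.26 (limma adjusted p = 0.993), and 0.78 without replicates 5 and 7. miR-471-5p averaged 17.1 ± 9.10 in air (SD, n = 7) and 30.9 ± 17.3 at 0.8 ppm (SD, n = 8), a difference of 0.67 ± 0.38 log2 that was 1.20 when those libraries were left out. miR-743b-3p, the most abundant member, averaged 4462 ± 472 and 5019 ± 1551, with a log2 fold change of 0.11 ± 0.20, which was 0.24 without replicate 7 and 0.34 without replicates 5 and 7. Without replicates 5 and 7, 20 of 25 members were positive and the median was 0.39. As a share of the miRNA table the family held 2.18% to 2.83% in air and 1.85% to 3.90% at 0.8 ppm, with 4 of 8 exposed libraries above the air range.

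Weighting each library by how closely it fits its group was the 1 alternative under which single miRNAs passed. Among the 15 libraries, the weights in the miRNA table ranged from 0.284 for 0.8 ppm replicate 5 to 2.48 for 0.8 ppm replicate 2. Replicate 5 at 0.4 ppm had 0.271 in the same fit. With these weights, limma called 3 of 407 miRNAs, all higher at 0.8 ppm. These were miR-471-5p at a log2 fold change of 1.21 ± 0.27 (adjusted p = 0.0204), miR-17-2-3p at 1.07 ± 0.25 (adjusted p = 0.0204) and miR-741-3p at 0.79 ± 0.19 (adjusted p = 0.0241). Leaving out 0.8 ppm replicates 5 and 7 instead gave 0 calls, with 44 of 407 miRNAs at an unadjusted p under 0.05. The smallest limma adjusted p was 0.188. With air replicate 6 also left out, there were 0 calls and 24 of 407 miRNAs at an unadjusted p under 0.05. The smallest limma adjusted p was then 0.303. The weights are estimated from the same values that are tested.

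No member of the other families passed either. The miR-34/miR-449 family, a marker of male germ cells, held 30.8% to 47.9% of the miRNA table in air and 24.1% to 51.3% at 0.8 ppm. It had 4 of 7 members above 0 and a median log2 fold change of 0.01, and 7 of 7 and 0.31 without replicates 5 and 7. In the miR-17-92 family and its paralogous clusters, 7 of 13 members were above 0 with a median of 0.05, and 10 of 13 with 0.15 without the same libraries. The share of the table held by those clusters was 0.470% ± 0.067 in air (SD, n = 7) and 0.605% ± 0.195 at 0.8 ppm (SD, n = 8), and 6 of 8 exposed libraries lay above the highest air library. Its most abundant member, miR-19b-3p, averaged 1330 ± 307 and 1952 ± 954, a log2 fold change of 0.39 ± 0.31, which was 0.60 without replicate 7 and 0.83 without replicates 5 and 7. The miR-15/miR-16 family had 6 of 9 members above 0 with a median of 0.16, and 7 of 9 with 0.27 without them, led by miR-16-5p at 16685 ± 1943 in air and 19072 ± 4773 at 0.8 ppm.

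Other families had medians below 0. The let-7 family, which is broadly expressed in differentiated cells, had 5 of 17 members above 0 and a median of -0.10. Its most abundant member, let-7a-5p, averaged 11653 ± 4000 in air (SD, n = 7) and 10840 ± 3424 at 0.8 ppm (SD, n = 8), and the member with the largest difference among abundant ones, let-7b-5p, 3816 ± 1682 and 3687 ± 3130. The log2 fold change of let-7b-5p was -0.28, and -0.79 without 0.8 ppm replicates 5 and 7. In the list of miR-26, miR-191 and miR-425, 2 of 7 members were above 0 with a median of -0.06. Its lead member miR-191a-5p ranged from 17614 to 22836 in air (median 20033) and from 13356 to 22347 at 0.8 ppm (median 17021). It lay below the lowest air library in 6 of 8 exposed libraries, with a log2 fold change of -0.22 ± 0.17 (limma adjusted p = 0.993). The miR-30 family had 2 of 9 members above 0, the miR-106b-25 cluster 1 of 6, and the Dlk1-Dio3 miRNAs 15 of 35, with medians of -0.07, -0.09 and -0.12. Without the same libraries the miR-106b-25 median turned to 0.02, with 3 of 6 above 0, the let-7 median was -0.18, and the miR-30, Dlk1-Dio3 and miR-26 list medians stayed below 0.

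Lists that stand for other cells or for oxidant responses held no called member. Members above 0 numbered 7 of 8 for the epithelial miR-200 list, 4 of 4 for muscle and stroma, 5 of 9 for leukocytes and 3 of 4 for erythroid cells, with medians of 0.17, 0.39, 0.02 and 0.01. Without replicates 5 and 7 those medians were 0.03, 0.23, -0.05 and -0.17. The oxidant and hypoxia list had 9 of 13 members above 0 with a median of 0.07, and -0.05 without the same libraries. Of the miRNAs tied to paternal stress in mice, 2 of 6 were above 0 with a median of -0.03, and 5 of 6 with 0.21 without them. The miR-10/miR-125 family, which takes in miR-100 and miR-99, went from 9 of 14 above 0 and a median of 0.08 to 5 of 14 and -0.15. For the 2 members of the miR-183/miR-96/miR-182 cluster, 1 was above 0.

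**Figure D3:**
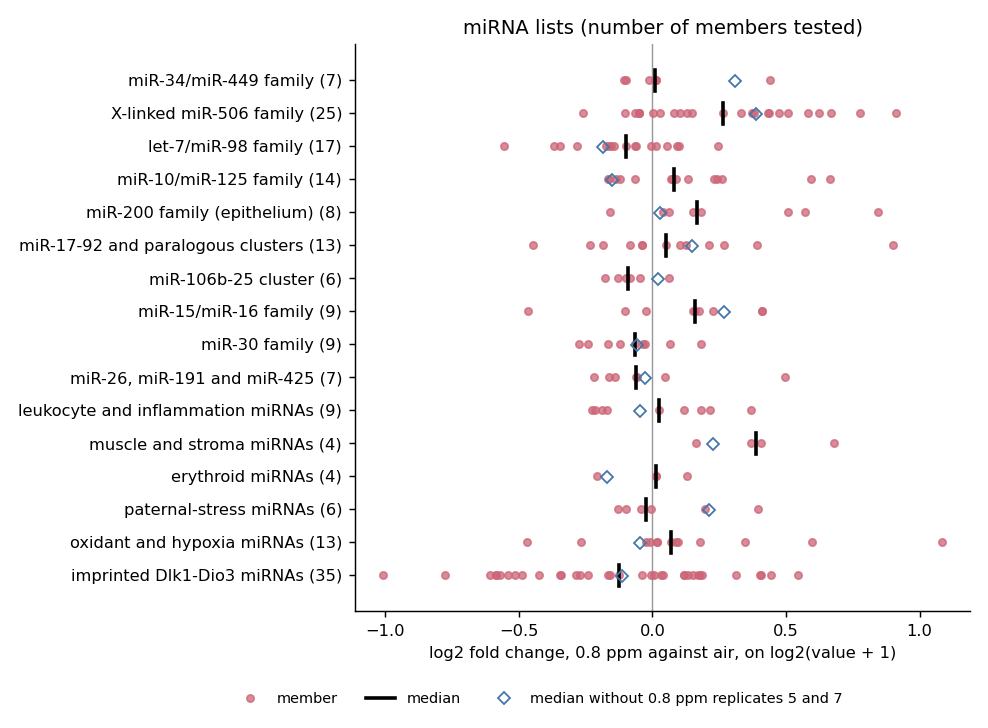
Each point is the log2 fold change of 1 miRNA at 0.8 ppm against air, grouped by list, with the number of members tested in brackets, the list median as a black bar and the median without 0.8 ppm replicates 5 and 7 as a blue diamond. The X-linked miR-506 median lies at 0.26 and at 0.39 without them, while the miR-10/miR-125 median goes from 0.08 to -0.15.

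The tRNA table was less concentrated on its top rows at 0.8 ppm than in air. Taken in each library, the 10 rows with the most signal held 62.4% to 65.8% of the tRNA table in air (median 64.2%) and 56.4% to 62.6% at 0.8 ppm (median 60.2%). In 6 of 8 exposed libraries the share lay below the lowest air library, and replicates 3 and 7 lay just inside the air range, at 62.6% each. The means were 64.1% ± 1.12 (SD, n = 7) and 59.6% ± 2.67 (SD, n = 8), a difference of -4.48 percentage points (two-sided exact permutation p = 0.0014, adjusted p = 0.0182 over 13 library measures). This measure was known from earlier results of these data. The effective number of rows, the exponential of the Shannon entropy, was 36.9 ± 2.08 in air and 42.9 ± 4.70 at 0.8 ppm (exact permutation p = 0.0106, adjusted p = 0.0687). The other 11 measures, which include the miRNA read total, had an adjusted p of 1. The 0.4 ppm libraries averaged 62.9% ± 3.94 (SD, n = 8), and 0.8 ppm lay 3.26 points below them (exact permutation p = 0.0746, adjusted p = 0.368).

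Which rows are counted decided whether this difference passed. With the 5, 20 or 50 most abundant rows it was -4.26, -3.10 and -1.60 points, with exact permutation adjusted p-values of 0.0687, 0.0778 and 0.473. Near-identical tRNA genes share reads, and with rows summed by isodecoder, genes of the same mature tRNA sequence, the difference was -2.66 points (adjusted p = 0.391). Without air replicate 3 it was -4.19 points (adjusted p = 0.0519), and without 0.8 ppm replicates 5 and 7 it was -5.15 points (adjusted p = 0.0114). With air replicate 6 also left out beside those 2, it was -5.13 points (exact permutation adjusted p = 0.0281).

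**Figure D4:**
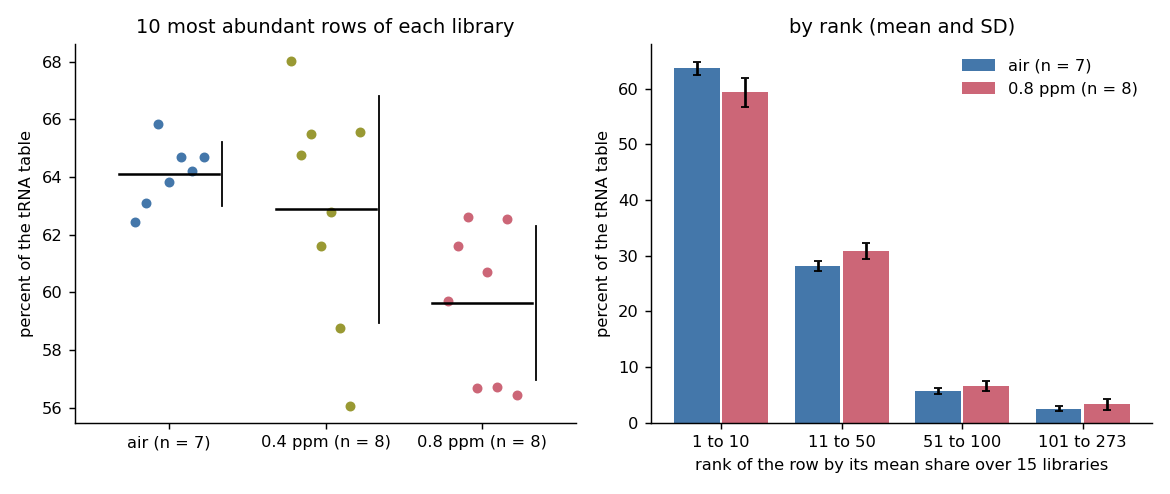
Left, the percent of the tRNA table held by the 10 most abundant rows of each library, for 7 air, 8 0.4 ppm and 8 0.8 ppm libraries, with the mean as a line and the SD as a bar, on an axis that does not start at 0. Right, the mean share with its SD of rows grouped by rank; the first 10 rows go from 63.6% to 59.3% and the other 3 groups are higher at 0.8 ppm.

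The share lost by the top rows was spread over the rest of the table. Ranked by mean share over the 15 libraries, rows 1 to 10 held 63.6% in air and 59.3% at 0.8 ppm, rows 11 to 50 held 28.2% and 30.8%, rows 51 to 100 held 5.68% and 6.60%, and rows 101 to 273 held 2.53% and 3.29%. On the deposited scale, log2 fold changes were above 0 for 1 of the first 10 rows, 7 of the next 40, 12 of the next 50 and 110 of the last 173. Scaled to the table total they were above 0 for 4, 27, 42 and 158 of these rows. The median over all rows depended on the scale, at -0.02 on the deposited values and 0.28 with each library scaled to its table total. Under the second scaling 84.6% of rows were above 0, so the direction of a tRNA row can depend on the scale. Values of tRNA rows below are on the deposited scale unless another is named.

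Reads assigned to tRNA-Gly-GCC, tRNA-Gly-CCC and tRNA-Leu-CAA made up the top of the table. Fragments of tRNA-Gly-GCC are among the most abundant small RNAs of rodent sperm. tRNA-Gly-GCC-1-5 ranged from 23474 to 42069 in air (median 32453) and from 11130 to 43206 at 0.8 ppm (median 19675). It lay below the lowest air library in 5 of 8 exposed libraries and above the highest in 1. Its log2 fold change was -0.50 ± 0.26 (limma adjusted p = 0.935), -0.19 when scaled to the table total and -0.75 without 0.8 ppm replicates 5 and 7. tRNA-Gly-GCC-1-3, tRNA-Gly-GCC-1-6 and tRNA-Gly-CCC-1-1 had log2 fold changes of -0.49, -0.49 and -0.50, and these 4 rows differed by at most 6.09% within a library, so they show the same signal. tRNA-Leu-CAA-2-2 ranged from 27239 to 51463 in air (median 38119) and from 19323 to 35144 at 0.8 ppm (median 29065). In 3 of 8 exposed libraries it lay below the air range, with a log2 fold change of -0.44 ± 0.23 (limma adjusted p = 0.935) and -0.14 when scaled to the table total.

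Shares by anticodon showed the same direction with overlap between groups. tRNA-Gly-GCC held 32.6% ± 3.63 in air (SD, n = 7) and 29.9% ± 4.86 at 0.8 ppm (SD, n = 8), tRNA-Leu-CAA 18.4% ± 3.72 and 17.0% ± 4.14, and tRNA-Gly-CCC 8.63% ± 0.946 and 7.73% ± 1.30. Higher mean shares at 0.8 ppm were found for tRNA-Glu-CTC, at 6.54% ± 0.764 and 7.38% ± 1.78, for tRNA-Val-AAC, at 2.81% ± 0.420 and 3.67% ± 1.15, and for tRNA-Asp-GTC, at 1.71% ± 0.419 and 2.37% ± 0.815. The tRNA-Asp-GTC share lay above the highest air library in 5 of 8 exposed libraries and below the lowest in 1. On the deposited scale the direction of single rows could differ from that of the share. There, 8 of 9 tRNA-Glu-CTC, 3 of 5 tRNA-Val-AAC and 0 of 14 tRNA-Asp-GTC rows had a log2 fold change below 0. Among single rows of these anticodons, tRNA-Asp-GTC-3-2 averaged 62.6 ± 8.33 and 80.9 ± 21.4, tRNA-Val-AAC-1-1 4138 ± 645 and 4710 ± 1870, and tRNA-Glu-CTC-1-6 5009 ± 1359 and 4102 ± 1388.

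The smallest tRNA p-value belonged to tRNA-Gln-CTG-2-2, a row of low level. It ranged from 4.64 to 18.4 in air (median 11.1) and from 14.9 to 29.4 at 0.8 ppm (median 19.6). In 5 of 8 exposed libraries it lay above the highest air library. The means were 10.9 ± 4.95 (SD, n = 7) and 20.8 ± 5.18 (SD, n = 8), a log2 fold change of 0.96 ± 0.27 with a 95% interval of 0.41 to 1.51 (limma adjusted p = 0.293), and 1.25 when scaled to the table total. The 0.4 ppm libraries averaged 18.1 ± 6.73 (SD, n = 8), and 0.8 ppm lay 0.23 ± 0.26 log2 above them (adjusted p = 0.923). Of the 9 tRNA-Gln-CTG rows, 0 passed, 8 were above 0 and the median was 0.35, beside 130 of 273 rows (47.6%) and a median of -0.02 over the table. tRNA-Gln-CTG-5-1 averaged 9.47 ± 3.29 and 15.0 ± 4.81, tRNA-Gln-CTG-3-1 3.59 ± 2.49 and 5.97 ± 1.53, and tRX-Val-NNN-3-1, a tRNA-like row, 3.93 ± 2.67 and 7.63 ± 3.51.

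tRNA-Ser-AGA rows lay lower at 0.8 ppm than in air on both scalings. tRNA-Ser-AGA-2-1 ranged from 164 to 308 in air (median 211) and from 113 to 183 at 0.8 ppm (median 150). All but 1 of the 8 exposed libraries lay below the lowest air library. Its log2 fold change was -0.55 ± 0.23 (limma adjusted p = 0.935), and -0.25 when scaled to the table total. Of the 7 rows with this anticodon 0 passed and 0 were above 0, with a median of -0.43, and -0.13 when scaled to the table total. tRNA-Ser-AGA-1-2 averaged 203 ± 55.5 and 145 ± 30.3, and tRNA-Ser-TGA-1-1, a row of another serine anticodon, 222 ± 57.0 and 164 ± 31.5. The 0.4 ppm libraries averaged 151 ± 61.3 for tRNA-Ser-AGA-2-1 (SD, n = 8), and the difference of 0.8 ppm from them was 0.03 ± 0.22 log2.

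**Figure D5:**
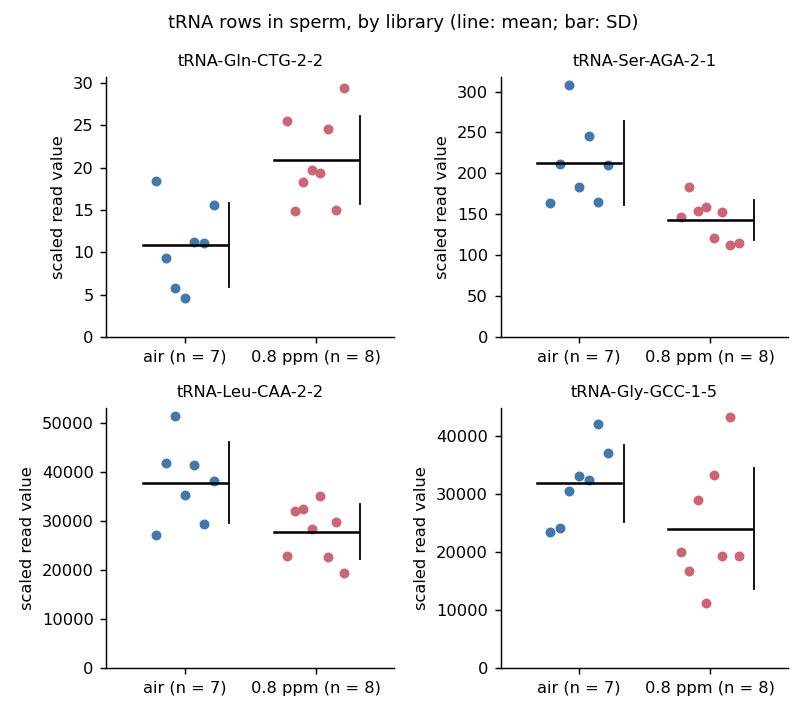
Scaled read values of 4 tRNA rows in each air library (blue, n = 7) and each 0.8 ppm library (red, n = 8), with the mean as a line and the SD as a bar. tRNA-Gln-CTG-2-2 has 5 of 8 exposed libraries above the highest air value of 18.4, and tRNA-Ser-AGA-2-1 has 7 of 8 below the lowest air value of 164.

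With library weights, limma called 22 of 273 tRNA rows, 6 higher and 16 lower at 0.8 ppm. The higher ones were 4 of 9 tRNA-Gln-CTG rows, a tRNA-Met-CAT row and tRX-Val-NNN-3-1. The lower ones included 5 of 11 tRNA-Gly-GCC, 4 of 10 tRNA-Glu-TTC, 3 of 7 tRNA-Ser-AGA and 2 of 3 tRNA-Leu-CAA rows. These are not all separate calls. The 4 glycine rows named above as showing the same signal were all among the lower ones. The 4 tRNA-Glu-TTC rows had like means in air, from 3381 to 3557. tRNA-Gln-CTG-2-2 had the smallest adjusted p, 0.0014, at a log2 fold change of 1.26 ± 0.24, and tRNA-Glu-TTC-2-2 a log2 fold change of -0.89 ± 0.24 (adjusted p = 0.0394), against -0.37 ± 0.31 with equal weights. Among the 15 libraries, the lowest weights in the tRNA table were 0.329 for 0.8 ppm replicate 5 and 0.406 for replicate 7. The 0.4 ppm libraries were weighted in the same fit, with 0.319 for replicate 5 and 0.3355 for replicate 6. Leaving out 0.8 ppm replicates 5 and 7 gave 0 calls and a smallest limma adjusted p of 0.169. With air replicate 6 also left out, there were 0 calls and a smallest limma adjusted p of 0.345.

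piRNAs with the smallest p-values had low levels, beside piR-rno-3104129, the highest in the table, which averaged 425512 ± 104634 in air (SD, n = 7) and 393573 ± 194553 at 0.8 ppm (SD, n = 8). The smallest p-values belonged to piR-rno-3926760, with a log2 fold change of 2.44 ± 0.54, and piR-rno-227431, with -1.41 ± 0.35. The next, piR-rno-807920, ranged from 2.23 to 4.97 in air and from 5.79 to 36.5 at 0.8 ppm, so its groups did not overlap. Groups did not overlap in 4 of the 15164 piRNAs (0.0264%), and in none with a mean of at least 50. Full separation of 8 from 7 libraries has an exact Wilcoxon p of 0.00031. A few such rows among 15164 would arise by relabelling alone, so the separation is no separate support. The log2 fold change of piR-rno-807920 was 2.10 ± 0.54 (limma adjusted p = 0.9998). piR-rno-874567 followed at -1.78 ± 0.47. Group means of these 4 lay between 1.22 and 19.2. Another abundant piRNA, piR-rno-2129341, averaged 297876 ± 63316 and 341980 ± 130780, a log2 fold change of 0.12 ± 0.29. The 10 most abundant piRNAs held 18.1% of the table in 0.8 ppm replicate 5 and 31.0% to 38.0% in the others at 0.8 ppm.

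The Ensembl table gave no transcript that passed. Smim29, a small membrane protein gene, averaged 21.9 ± 5.04 in air (SD, n = 7) and 13.9 ± 10.8 at 0.8 ppm (SD, n = 8), with a log2 fold change of -0.95 ± 0.39 (limma adjusted p = 0.997). The mitochondrial noncoding transcript AY172581.24, the most abundant row, averaged 65047 ± 24830 and 73383 ± 27680, a log2 fold change of 0.11 ± 0.36. Reads assigned to a Stat2 transcript, an interferon signalling factor, ranged from 4434 to 42979 in air and from 5984 to 52779 at 0.8 ppm. Mt-co1, a mitochondrial respiratory subunit, averaged 15.6 ± 3.55 and 18.4 ± 7.25, and AY172581.9 5039 ± 1587 and 6682 ± 3330. Of 15 mitochondrial noncoding transcripts 10 were above 0 on the deposited scale and 7 when scaled to the table total, beside 291 (47.2%) and 175 (28.4%) of all 617. The median over all transcripts was -0.03 and -0.18 on these scales.

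With all libraries, the spread between rats was wider at 0.8 ppm than in air for most features of each table. The SD of log2(value + 1) was larger at 0.8 ppm in 66.6% of miRNAs, 68.5% of tRNA rows, 65.0% of piRNAs and 65.8% of transcripts. Without replicates 5 and 7 these shares were 31.2%, 41.4%, 50.5% and 55.6%. Those were the farthest libraries of their group, and air kept all of its libraries, replicate 6 included. Leaving them out of 1 group only lowers its SD by design, so the second shares cannot show where the wider spread lies. No test was made of the spread.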

How the data were processed

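Cauda sperm small RNA under 200 nt was isolated with the mirVana procedure, and libraries (CleanTag kit) were read on a NextSeq 500 with 75 single-end cycles, per the labels' protocols; RNA integrity numbers were 2 to 4. Partek, Bowtie 1.0.0 and the build rn6 are named in the submitters' processing notes, with no roles. What the authors deposited is a read signal after scaling, for 425 miRNA, 273 tRNA, 30676 piRNA and 617 Ensembl rows. The median ratio to the row's geometric mean did not differ between the 23 libraries in any of the 4 tables, which shows a separate scaling per table; levels were compared within tables. miRNA values were whole multiples of 1 read (100% of 278 to 337 checked values per library within 0.1 read). Depth of the other tables is unknown. 15512 piRNA rows repeated another row exactly, which left 15164.

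The fit was made in limma 3.58.1 (R 4.3.3) on log2(value + 1), with trend and robust moderation and all 3 groups, for features above 0 in at least 8 of 23 libraries (407 miRNAs, all other rows), with Benjamini-Hochberg adjustment per table, two-sided, at 0.05. p-values measure the spread between rats. On data simulated from these tables the fit recovered 56% (miRNA), 85.3% (tRNA), 2% (piRNA) and 59% (Ensembl) of features changed by 1 on the log2 scale. The simulation was 1 draw with noise independent between rows, without near-identical rows or libraries far from their group. It changed 50 miRNAs, 34 tRNA rows, 100 piRNAs and 78 transcripts by 1, and about as many others by 2. The recovered shares hold for that setting only. Library measures were compared by exact permutation over 6435 relabellings. 14 measures had been planned; tRNA reads could not be recovered, so 13 were adjusted together, 3 of them constant. Alternatives were other pseudocounts, filters and scalings, library weights, a depth covariate, a Wilcoxon test, edgeR 4.0.16, DESeq2 1.42.0, summed rows and leaving out each library. The number after the letter S in the labels ran to 12 with at most 2 libraries each; its meaning is not given and it was not used.

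Features were named by rule: those with the smallest p (8 miRNAs, 8 tRNA rows, 4 piRNAs, 4 transcripts), the most abundant, the lead members of lists, and features called under 1 alternative alone. Some Ensembl transcripts that the rule picks are not reported here. The members and lists were chosen with earlier results of these data known. miRNA sequences and positions come from RefSeq (GRCr8), another build than the reads.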

Additional observations from a re-analysis of the deposited data

Results flagged for a closer look

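Single libraries stood apart from their group by a gap test at the 95% level, which flags about 1 in 20 groups by chance. Of 151 such tests, 21 flagged a library. The tests are not independent, because the share of a list and its members rest on the same values. Most flags fell on the same 3 libraries. In air replicate 6 the effective number of miRNA rows was 32.5 (24.3 to 27.5 in the other air libraries). The miR-34/miR-449 share was 30.8% and the miR-10/miR-125 share 7.91% (2.15% to 4.12%). The leukocyte and inflammation share was 4.81%, most of it miR-146b-5p. On the log2(value + 1) scale miR-34c-5p was 16.94 there (17.29 to 17.53) and let-7a-5p 14.32 (13.10 to 13.48).

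In 0.8 ppm replicate 5 the piRNA share of the 10 most abundant rows was 18.1%, the effective number of piRNA rows 439.4 (160.3 to 241.8), the miR-200 share 2.95%, the miR-183/miR-96/miR-182 share 1.11% (0.162% to 0.438%) and the oxidant and hypoxia share 2.78% (1.39% to 1.87%). On the log2 scale miR-24-1-5p was 3.94, the mitochondrial transcripts AY172581.24 and AY172581.9 were 14.20 and 10.02, and Mt-co1 was 2.19.

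In 0.8 ppm replicate 7 the muscle and stroma share was 11.3% and the leukocyte and inflammation share 4.75% (1.75% to 2.69%). On the log2 scale miR-143-3p was 16.23, miR-145-5p 7.90 and let-7a-5p 14.20. In air replicate 2 miR-125b-5p was 5.58 (4.58 to 5.00 in the other air libraries).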

How the results depend on the processing

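No paired analysis was possible because the labels give no replicate number shared between groups. Library weights changed the number of calls to 3 of 407 miRNAs and 22 of 273 tRNA rows, and the cause was not tested. The tRNA share of the 10 most abundant rows kept its sign in all settings, at -4.90 to -4.02 points when each library was left out in turn. It missed the threshold without air replicate 3 (-4.19), with the 5, 20 or 50 most abundant rows (-4.26, -3.10, -1.60) and with rows summed by isodecoder (-2.66) or anticodon (-1.85).

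Small log2 fold changes reversed, with adjusted p-values over 0.87 in each. With library weights they were 0.021 for miR-34c-5p, 0.033 for miR-449a-5p and -0.020 for miR-10a-5p. Without 0.8 ppm replicates 5 and 7, a setting chosen after seeing the data, they were 0.095 for miR-34c-5p, 0.091 for miR-449a-5p, -0.25 for miR-10a-5p, -0.10 for tRNA-Val-AAC-1-1 and -0.29 for Stat2. With air replicate 6 also left out they were 0.028 for miR-34c-5p, 0.042 for miR-449a-5p and -0.050 for tRNA-Val-AAC-1-1. Quantile normalization gave 0.013 for tRNA-Gly-GCC-1-3, 0.0055 for tRNA-Gly-CCC-1-1, -0.26 for AY172581.24 and -0.10 for AY172581.9. Scaling to the table total gave -0.073 for AY172581.24 and -0.071 for Mt-co1. Beside the Wilcoxon test, the difference of log2 medians was 0.018 for miR-449a-5p.

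When each library was left out in turn, log2 fold changes ran from -0.051 to 0.11 for miR-34b-3p, -0.18 to 0.0070 for miR-449a-5p, -0.14 to 0.34 for miR-10a-5p, -0.22 to 0.047 for let-7a-5p, -0.029 to 0.22 for tRNA-Val-AAC-1-1, -0.0021 to 0.37 for AY172581.24 and -0.10 to 0.53 for Stat2. The other features named here and tried under these settings kept their sign. The piRNA intervals are the widest, and a log2 change of 1 was recovered there in 2% of simulated cases. In that simulated setting, with noise independent between rows, a change of that size seldom passed the adjusted threshold. Low miRNAs rest on few reads, with 75 air reads behind miR-17-2-3p.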

Other observations

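Pairs of miRNA names that stand for opposite strands of 1 sequence carried identical values. This was looked for after miR-125b-5p and miR-3588 had been seen side by side. Of the measured miRNAs with a RefSeq sequence, 15 pairs had a complementary run of at least 16 bases, and 7 pairs were exact reverse complements. In 6 of these 7 the values were identical in all 15 libraries. The pair with the most reads was let-7a-5p and miR-3596a, whose mature sequences are shown with the seed in capitals.
let-7a-5p: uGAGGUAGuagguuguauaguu
miR-3596a: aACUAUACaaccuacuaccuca
Both were listed at a mean of 11653 in air and 10840 at 0.8 ppm. The others were miR-181a-1-3p with miR-3570, miR-210-3p with miR-3574, miR-378a-5p with miR-3557-3p, miR-382-3p with miR-3592, and miR-539-5p with miR-3576. The exception was miR-125b-5p with miR-3588, whose values were alike without being identical. Of the 407 miRNAs tested, 10 were members of such identical pairs, so 5 of the tests repeated another, and reads of the 2 strands cannot be told apart in these rows.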
